A study of Homo sapiens with 16 samples.

Results

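The 10 genes described here encode hepcidin (HAMP, gene ID 57817), the iron carrier transferrin (TF, 7018), the transferrin receptors (TFRC, 7037, and TFR2, 7036), both ferritin chains (FTH1, 2495, and FTL, 2512), the iron exporter ferroportin (SLC40A1, 30061), haptoglobin (HP, 3240), hemopexin (HPX, 3263) and ceruloplasmin (CP, 1356). They were taken by name from the 26258 genes of an RNA-sequencing table, and all 10 passed a filter of at least 1 CPM (reads of a gene scaled to a library of 1000000 counted reads) in at least 2 libraries, as 15019 genes did. The members were selected on their CPM in these same libraries, known from earlier results, so their levels and differences are given as a description without a test. The samples were Huh7 and Hep3B cells, established lines of human hepatocellular carcinoma (HCC). Each line was represented by parental cells, by cells labelled DMSO (the solvent of the drug), by IR cells raised in increasing concentrations of the kinase inhibitor Sorafenib, and by CR cells raised in a constantly high concentration, with 2 replicate libraries per group and 16 in all. The labels give 7 μM Sorafenib for IR and CR cells and no treatment for parental cells and for the cells labelled DMSO, and no source used here says how the latter were grown. Resistant cells were therefore held in the drug while the cells they were compared with were not, so exposure and resistance cannot be told apart.

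Hepcidin is a peptide hormone of the liver that binds ferroportin and causes its degradation, and so limits the release of iron from cells. Hepatocytes transcribe HAMP in response to bone morphogenetic proteins (BMP2 and BMP6), which act through receptor kinases, the co-receptor hemojuvelin (HJV) and SMAD proteins, while TFR2 and HFE take part in sensing transferrin-bound iron and the protease TMPRSS6 cleaves hemojuvelin. Inside the cell, iron regulatory proteins bind hairpins of messenger RNA called iron-responsive elements (IREs) when iron is scarce, which blocks translation of the ferritin chains and ferroportin and stabilises the TFRC transcript. Hepatocytes also secrete transferrin, ceruloplasmin, haptoglobin and hemopexin, which carry iron, oxidise it, and bind free hemoglobin and free heme in the blood.

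The sequences through which these controls are known to act are shown first, since the results below turn on hepcidin and on the genes with such hairpins. The 250 bases before the start of the main GENCODE transcript of HAMP (GRCh37, chr19:35773181-35773430, plus strand) are printed with 2 elements in capitals. These are the core of the BMP response element, GGCGCC, at bases -105 to -100 from the start, and the STAT site TTCTTGGAA at bases -93 to -85. Among 19874 promoters cut in the same way and searched on both strands, 22.2% held the first, 0.282% the second, and 6 (0.0302%) held both. The motifs do not overlap in HAMP, and a match describes the letters only.
HAMP promoter: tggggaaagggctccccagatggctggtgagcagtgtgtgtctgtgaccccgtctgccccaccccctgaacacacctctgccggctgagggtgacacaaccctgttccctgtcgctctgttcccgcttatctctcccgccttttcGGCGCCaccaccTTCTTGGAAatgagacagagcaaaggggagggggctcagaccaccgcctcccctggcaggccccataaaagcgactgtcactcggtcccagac

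IRE-like hairpins were searched in the UTRs of the main GENCODE transcripts on GRCh37 as CNNNNNCAGTGN in which the 5 bases between the first C and CAGTG pair with the 5 bases after the motif, G-U pairs allowed, on the transcribed strand. The pattern was found in 0.0963% of 18700 5′ UTRs and 0.6305% of 19349 3′ UTRs. It was present in the 5′ UTRs of FTH1, FTL and SLC40A1 and at 4 places in the 3′ UTR of TFRC, and HAMP, TFR2, CP, HP and HPX had no match. A single match in the 3′ UTR of a long transcript model of TF is not shown. The capitals mark the bulged C and the CAGTG of the loop.
FTH1 5′ UTR, chr11:61735045-61735074, minus strand: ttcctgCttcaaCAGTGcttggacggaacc
FTL 5′ UTR, chr19:49468592-49468621, plus strand: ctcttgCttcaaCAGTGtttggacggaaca
SLC40A1 5′ UTR, chr2:190445386-190445415, minus strand: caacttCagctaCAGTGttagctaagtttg
TFRC 3′ UTR, site 1, chr3:195777849-195777878, minus strand: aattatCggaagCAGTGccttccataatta
TFRC 3′ UTR, site 2, chr3:195777445-195777474, minus strand: cattatCgggagCAGTGtcttccataatgt
TFRC 3′ UTR, site 3, chr3:195777380-195777409, minus strand: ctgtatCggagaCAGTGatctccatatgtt
TFRC 3′ UTR, site 4, chr3:195777333-195777362, minus strand: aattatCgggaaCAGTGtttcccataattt

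Recovered totals lay between 46613302 and 76860251 reads per library. The SD of the difference between replicates across genes was 0.57 on the log2(CPM + 1) scale for Huh7 DMSO as well as Huh7-IR cells, against 0.24 to 0.31 elsewhere. Markers of hepatocytes moved with the groups: the sum of 10 such markers was 11399 and 16075 CPM in the Huh7 parental libraries, 23883 to 26229 in DMSO, 129 to 567 in IR and 1445 to 3003 in CR cells. In Hep3B the sums were 16910 to 20511, 28575 to 32365, 3590 to 9859 and 1321 to 2129 CPM in the same order. ALB, the serum albumin gene, ranged from 60.6 CPM in a Huh7-IR to 19701 CPM in a Hep3B DMSO library, and AFP (α-fetoprotein) from 2.79 CPM in a Huh7-IR to 7222 CPM in a Huh7 DMSO library. The sum of 5 erythroid markers did not exceed 0.275 CPM in any library. The sum of 6 macrophage markers lay between 10.8 and 113 CPM, with CD163, the haptoglobin-hemoglobin receptor of macrophages, at 0 reads in 7 of the 8 groups. Fibroblast markers (6 genes) summed to 7.09 and 7.51 CPM in Huh7 parental, to 281 to 289 CPM in Huh7-IR and to 375 to 541 CPM in Huh7-CR libraries, and in Hep3B to 4.23 to 6.02 CPM in parental, 12.9 to 64.7 CPM in IR and 51.4 to 71.0 CPM in CR libraries. The part of these differences in the results below was not tested.

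HAMP (GRCh37, chr19:35771619-35776046, plus strand) was under 0.1 CPM in 10 of the 16 libraries and above 5 CPM in 1. In Huh7 parental cells its level was 0.0873 and 0.0268 CPM (6 and 2 reads), and in Huh7 DMSO cells it was 3.93 and 89.2 CPM (285 and 6209 reads). The second DMSO library held more HAMP than any other library, 22.7 times the level of its own replicate. In Huh7-IR cells HAMP was 0.0663 and 0 CPM (4 and 0 reads) and in Huh7-CR cells 0.0309 and 0 CPM (2 and 0 reads). The resistant Huh7 libraries thus overlapped with parental ones, at a level where both groups hold 8 reads or fewer.

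In Hep3B parental cells HAMP was 0.794 and 4.01 CPM (59 and 285 reads), and in Hep3B DMSO cells 0.833 and 4.45 CPM (64 and 325 reads). The replicates differed by 5.05 times in the parental and by 5.35 times in the DMSO group, and the groups overlapped. Hep3B-IR cells had 0 and 0.0711 CPM (0 and 5 reads), and Hep3B-CR cells had 0.0530 and 0.0381 CPM (4 and 2 reads). All 4 resistant Hep3B libraries lay below all 4 libraries of parental and DMSO cells of that line. Over the group, 344 reads in parental cells stood against 5 in IR cells, a ratio of depth-scaled reads of 68.7 (95% interval 29.1 to 213), and against 6 in CR cells, a ratio of 50.5 (23.0 to 139). These intervals cover counting error only and leave out the spread between replicates. The log2 difference from parental cells on the log2(CPM + 1) scale, on which low genes change little, was -1.53 in IR and -1.52 in CR cells (SE 0.96 each).

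In the order of group means HAMP was highest in Huh7 DMSO, followed by Hep3B DMSO and Hep3B parental cells, and each of these overlapped with the next. Below them stood Huh7 parental, Hep3B-CR, Hep3B-IR, Huh7-IR and Huh7-CR cells, at means of 0.0155 to 0.0570 CPM and again with each group overlapping the next. The only separation between neighbours in this order was that of Hep3B parental from Huh7 parental cells. In these bulk samples, fewer cells that express a gene and less RNA per cell cannot be told apart.

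**Figure D1:**
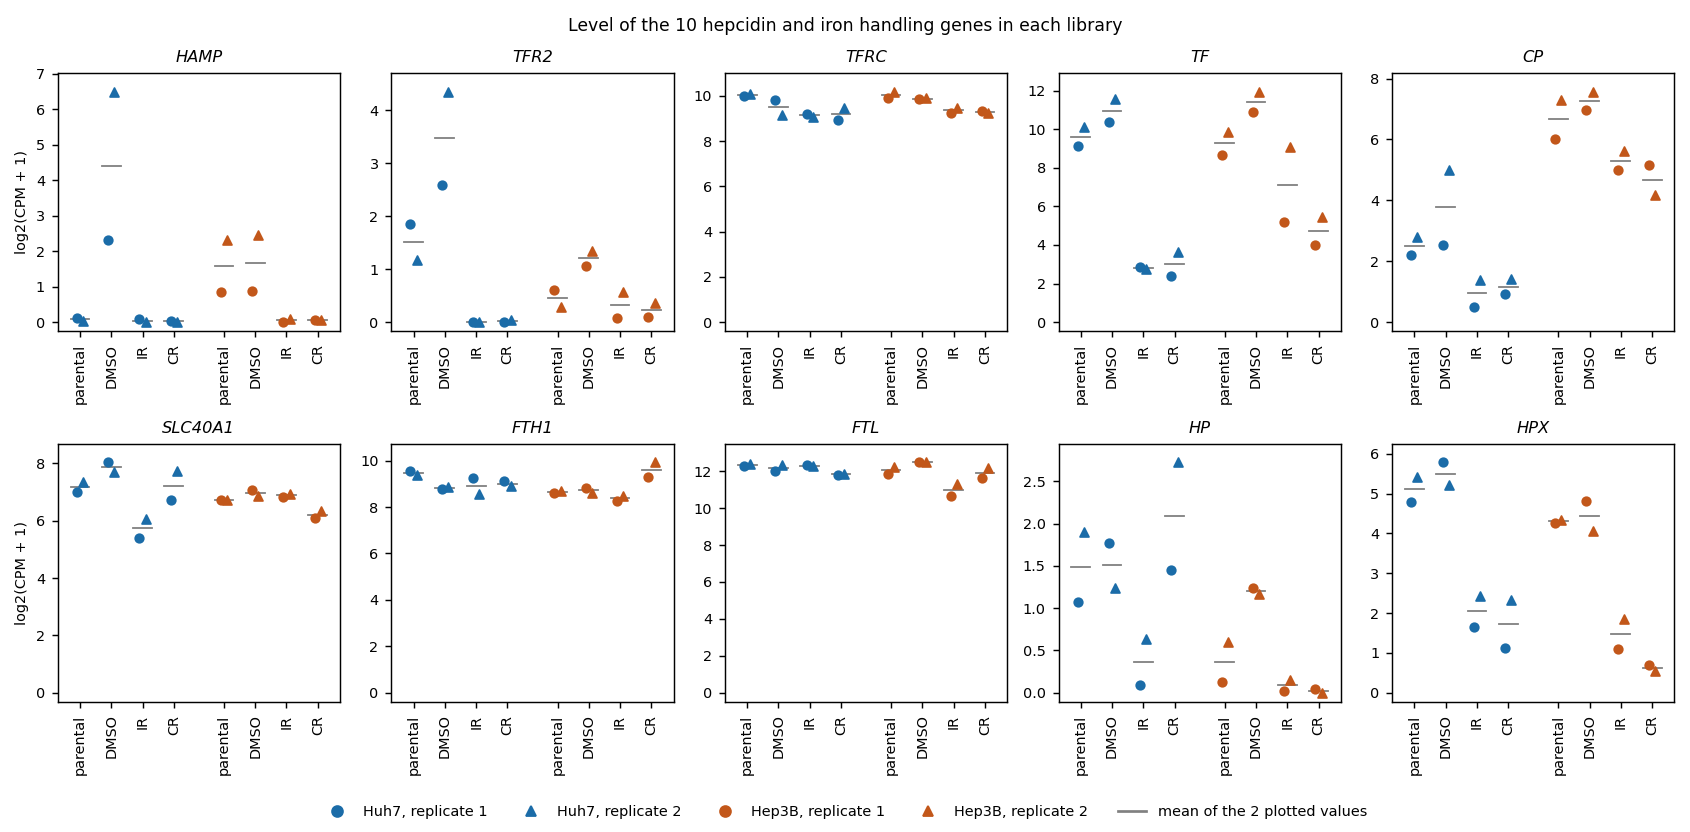
Level of each of the 10 genes as log2(CPM + 1) on the vertical axis, in the 8 groups on the horizontal axis. Circles are replicate 1 and triangles replicate 2, blue is Huh7 and orange Hep3B, and grey lines are means of the 2 plotted values. HAMP stands apart in the second Huh7 DMSO library at 89.2 CPM, while TFRC, FTH1 and FTL keep a narrow range in all 16 libraries.

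The high value of HAMP in Huh7 DMSO cells rested on libraries that differed from each other across the transcriptome. The log2(CPM + 1) value of HAMP was 4.19 higher in replicate 2 than in replicate 1, and 7 of 15019 genes had a larger gap. CP had a gap of 2.45, TFR2 of 1.76 and TF of 1.17 in the same direction, whereas TFRC was 0.65 lower in replicate 2 and FTH1, at 0.06, was nearly level. Across the transcriptome 1011 genes were at least 1 higher on the log2 scale in replicate 2 and 144 at least 1 lower. The gap was correlated with GC content across the 13366 genes with a known value (Spearman's rho 0.53, genes not being independent). Such a correlation was not particular to this group, with rho at -0.56 in Huh7 parental and 0.40 in Hep3B DMSO cells. In the remaining groups rho lay between -0.30 and 0.29. HAMP at 57.4% GC stood at percentile 77.6 and TMPRSS6 at 63.2% GC at percentile 93.4 of the tested genes. TFR2, at 61.7% GC, stood between HAMP and TMPRSS6, while TF (41.8%) and CP (39.4%) stood at percentiles 25.6 and 15.0. Whether GC content has a part in the HAMP value was not tested. The log2 difference of HAMP between DMSO and parental cells was 4.32 (SE 0.96) with both libraries, 2.22 without DMSO replicate 2 and 6.42 without DMSO replicate 1, so that HAMP lay above both parental libraries in either case.

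A few genes that control hepcidin were higher in Huh7 DMSO than in parental cells. In limma's test across all genes, 5 of the 27 genes of this list rose, 0 fell and 22 did not pass, while 5.18% of all genes were called in this comparison (3.60% higher and 1.58% lower). HJV was 0.437 and 0.964 CPM in parental and 4.94 and 14.005 CPM in DMSO libraries, a log2 fold change of 2.49 (SE 0.35, adjusted p = 0.0032). TMPRSS6 was 1.00 and 0.777 CPM against 4.83 and 24.96 CPM, a log2 fold change of 2.70 (SE 0.47, adjusted p = 0.0097). SMAD9, a SMAD protein that BMP receptors phosphorylate, was 1.56 and 1.19 CPM against 9.03 and 28.7 CPM, with a log2 fold change of 2.87 (SE 0.47, adjusted p = 0.0067). For each of these genes the DMSO libraries lay above the parental ones, and replicate 2 was the higher of the pair, as for HAMP. SMAD6, an inhibitory SMAD (log2 fold change 1.57), and the activin receptor gene ACVR2B (0.87) were the other two that rose, and are named after their values had been seen. Both of these calls held without DMSO replicate 1 and were lost without DMSO replicate 2, at 0.83 and 0.57, and without either parental library. TMPRSS6 lost its call without either parental library and SMAD9 without parental replicate 2, and HJV kept it in all 4 cases. With the Huh7 libraries fitted alone none of the 5 genes passed (adjusted p = 0.086 for HJV), and SMAD6 and ACVR2B also lost their calls with no filter on low values. The BMP target ID1, also picked after its values were known, was 179 and 145 CPM in parental and 255 and 498 CPM in DMSO libraries and did not pass (log2 fold change 1.14, adjusted p = 0.19). The ligand gene BMP6 was at 1.57 and 1.29 CPM against 0.634 and 2.21 CPM and did not pass (log2 fold change -0.08, adjusted p = 0.90).

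**Figure D2:**
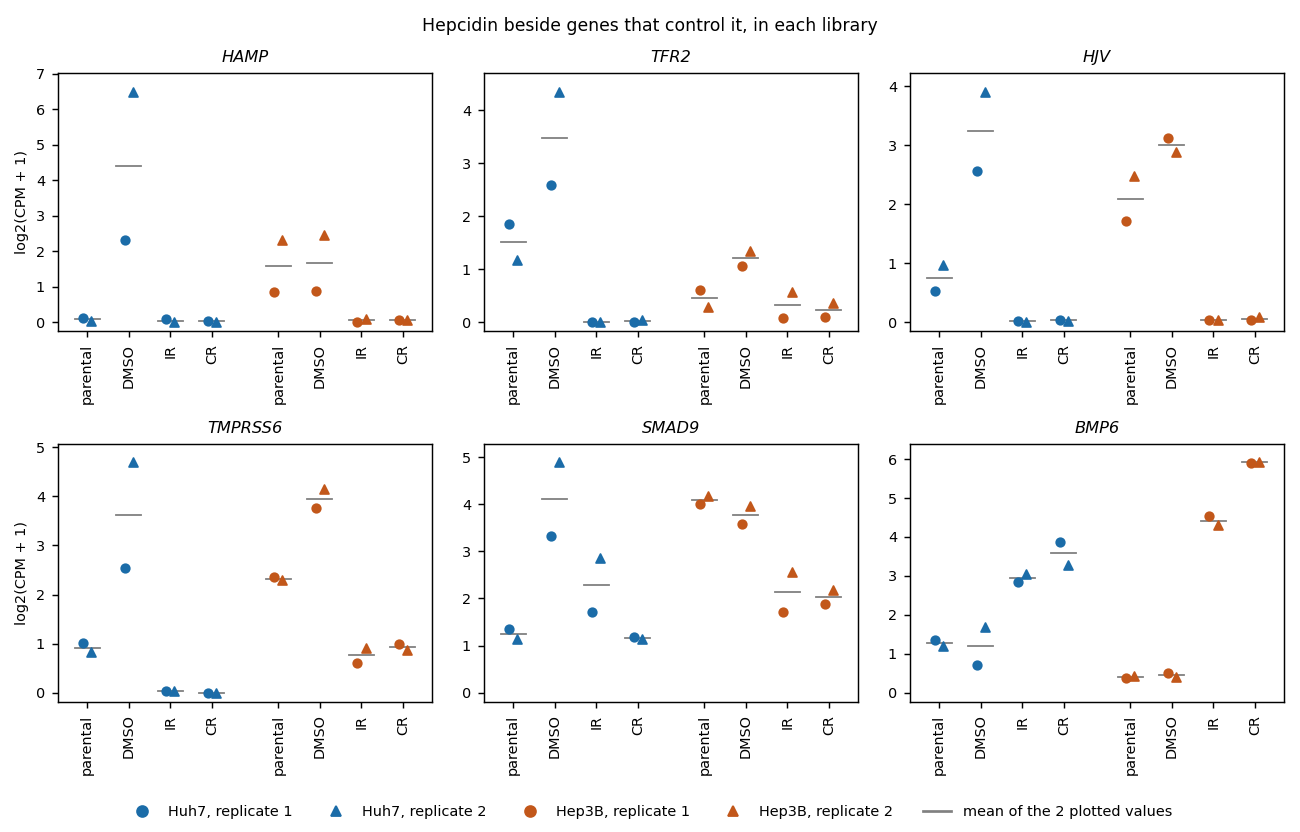
HAMP beside 5 genes that control it, as log2(CPM + 1) on the vertical axis in the 8 groups on the horizontal axis, with circles for replicate 1, triangles for replicate 2 and grey lines for the mean of the 2 plotted values. TFR2, HJV, TMPRSS6 and SMAD9 share with HAMP their highest library, Huh7 DMSO replicate 2, and BMP6 is highest in Hep3B-CR cells at 58.9 and 59.6 CPM.

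TFR2, the transferrin receptor that hepatocytes use to sense iron (chr7:100218039-100240402, minus strand), was 2.62 and 1.25 CPM in Huh7 parental cells (180 and 93 reads). In DMSO cells it was 4.99 and 19.4 CPM, above both parental libraries (log2 difference 1.95, SE 0.43, and 2.84 without DMSO replicate 1 and 1.07 without DMSO replicate 2). Huh7-IR libraries held 0 reads of TFR2. With a floor of 3 reads over the group its level was 67.9-fold lower than in parental cells. The 95% counting interval of the ratio started at 54.8. Huh7-CR libraries held 0 and 2 reads against 273 in parental cells, a ratio of 134 (95% counting interval 36.8 to 1115). TFR2 was lower in Hep3B to begin with, at 0.525 and 0.225 CPM in parental and 1.09 and 1.54 CPM in DMSO cells, which did not overlap. In resistant Hep3B cells it was 0.0535 and 0.483 CPM (IR) and 0.0662 and 0.286 CPM (CR), and both groups overlapped with parental cells. The TFR2 libraries of Hep3B thus separated DMSO from parental cells but neither resistant group from them.

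TFRC, the receptor through which most cells take up transferrin (chr3:195739382-195809024, minus strand), was 1033 and 1081 CPM in Huh7 parental cells. It was 901 and 575 CPM in DMSO, 584 and 543 CPM in IR and 490 and 700 CPM in CR cells, and all 3 groups lay below the parental libraries. The log2 differences were -0.55 for DMSO, -0.91 for IR and -0.85 for CR cells (SE 0.21 each), and against the DMSO libraries the IR and CR values were -0.35 and -0.30. The DMSO value was -0.23 without DMSO replicate 2 and -0.88 without DMSO replicate 1. In Hep3B TFRC was 951 and 1168 CPM in parental, 940 and 954 CPM in DMSO, 607 and 718 CPM in IR and 642 and 607 CPM in CR cells. Both resistant groups lay below the parental libraries (log2 differences -0.67 and -0.75, SE 0.21), and DMSO libraries overlapped with them. In the order of means TFRC ran from 1059 CPM in Hep3B parental to 563 CPM in Huh7-IR cells, and the 4 resistant groups and Huh7 DMSO cells each overlapped with their neighbour. Per kilobase of the main transcript its mean lay between 112 and 211 CPM, against 0 to 4.22 CPM for TFR2.

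TF, the gene of the plasma iron carrier (chr3:133464884-133515485, plus strand), had the widest range of the 10 genes on the log2(CPM + 1) scale. It was 556 and 1110 CPM in Huh7 parental and 1327 and 2979 CPM in Huh7 DMSO cells. In resistant Huh7 cells it was 6.13 and 5.81 CPM (IR) and 4.30 and 11.5 CPM (CR), which lay far below all parental libraries, with log2 differences of -6.82 and -6.59 (SE 0.99). In Hep3B it was 405 and 927 CPM in parental and 1876 and 3935 CPM in DMSO cells, where the groups did not overlap (log2 difference 2.15). Hep3B-CR libraries held 15.1 and 42.0 CPM (log2 difference -4.55), again below the parental ones. Hep3B-IR libraries split, at 35.1 and 540 CPM, so that the group overlapped with parental cells, and its log2 difference of -2.14 was -0.18 without IR replicate 1 and -4.09 without IR replicate 2. Replicate 2 held more TF than replicate 1 in 7 of the 8 groups, by 3.91 on the log2(CPM + 1) scale in Hep3B-IR cells, where 0 of 15019 genes had a larger gap. The exons of TF overlap those of SRPRB on the same strand.

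CP, a copper enzyme of plasma that oxidises iron as it leaves cells (chr3:148880197-148939616, minus strand), was higher in Hep3B than in Huh7 parental cells. Hep3B parental cells held 64.3 and 157 CPM and Huh7 parental cells 3.61 and 6.0 CPM. In Hep3B it was 123 and 189 CPM in DMSO, 30.7 and 47.9 CPM in IR and 35.1 and 16.9 CPM in CR cells, and both resistant groups lay below the parental libraries (log2 differences -1.37 and -1.996, SE 0.68). In Huh7 it was 4.84 and 30.8 CPM in DMSO, 0.414 and 1.63 CPM in IR and 0.896 and 1.66 CPM in CR cells, with the same separation (-1.56 and -1.34). The DMSO libraries of Huh7 overlapped with parental ones, and the log2 difference of 1.26 was 0.04 without DMSO replicate 2. The exons of CP overlap those of HPS3 on the opposite strand, and no source used here says that reads were counted by strand.

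SLC40A1, the gene of ferroportin and the target of hepcidin (chr2:190425316-190448484, minus strand), differed between the resistant groups of Huh7. It was 126 and 164 CPM in parental, 263 and 207 CPM in DMSO, 41.2 and 65.7 CPM in IR and 104 and 213 CPM in CR cells. The DMSO libraries lay above and the IR libraries below the parental ones (log2 differences 0.70 and -1.45, SE 0.29). The CR libraries lay on either side of them, with a log2 difference of 0.05 that was -0.46 without CR replicate 2 and 0.56 without CR replicate 1. In Hep3B the level was 104 and 106 CPM in parental, 135 and 114 CPM in DMSO, 114 and 120 CPM in IR and 67.7 and 79.2 CPM in CR cells. CR libraries lay below the parental ones (-0.51), and IR and DMSO libraries lay slightly above them (0.16 and 0.24, each within its SE of 0.29). In the order of group means SLC40A1 was highest in Huh7 DMSO cells, which overlapped with Huh7-CR cells, and it was lowest in Huh7-IR cells. HAMP, TFR2 and HPX also had their highest mean in Huh7 DMSO cells. Replicate 1 was the higher of that pair for SLC40A1 and replicate 2 for HAMP.

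The ferritin chains store iron in a shared shell, FTH1 oxidising it and FTL aiding its deposition. Per kilobase of the main transcript FTL was the most abundant and FTH1 the next in all 8 groups of the 9 genes compared, at 2396 to 6616 and 275 to 664 CPM. TF was left out of this ranking, its transcript model being far longer than its mRNA. Before scaling by length, its mean was above that of FTH1 in the parental and DMSO groups of both lines. The means were 2153 against 451 CPM in Huh7 DMSO and 2905 against 420 CPM in Hep3B DMSO cells. In all resistant groups the mean of TF was below that of FTH1. Single libraries did not all follow these means. Hep3B-IR replicate 2 held 540 CPM of TF against 352 CPM of FTH1, and Huh7 parental replicate 1 held 556 against 757 CPM. FTL (chr19:49468566-49470136, plus strand) was 5037 and 5385 CPM in Huh7 parental, 4163 and 5199 CPM in DMSO, 5145 and 4946 CPM in IR and 3624 and 3763 CPM in CR cells, and of these groups CR lay below the parental libraries (log2 difference -0.50, SE 0.25). In Hep3B FTL was 3705 and 4870 CPM in parental, 5773 and 5752 CPM in DMSO, 1624 and 2549 CPM in IR and 3235 and 4675 CPM in CR cells. There the IR libraries lay below the parental ones (-1.06) and the DMSO libraries above (0.44). After quantile normalization FTL was at 0.08 in Hep3B DMSO and at -0.68 in Huh7 DMSO cells, against -0.16 before it.

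FTH1 (chr11:61727190-61735106, minus strand) was 757 and 671 CPM in Huh7 parental, 441 and 461 CPM in DMSO, 614 and 371 CPM in IR and 549 and 476 CPM in CR cells. All 3 groups lay below the parental libraries, by -0.66, -0.58 and -0.48 on the log2 scale (SE 0.23). The IR value was -0.94 without IR replicate 1 and -0.21 without IR replicate 2. Against the DMSO libraries in place of the parental ones the IR and CR values were 0.08 and 0.18, so the direction in Huh7 depended on the control. In Hep3B FTH1 was 384 and 409 CPM in parental, 448 and 392 CPM in DMSO, 309 and 352 CPM in IR and 623 and 976 CPM in CR cells. Hep3B-CR was the only one of the 4 resistant groups with FTH1 above its parental libraries (log2 difference 0.97, SE 0.23), and FTL did not separate from parental cells there (-0.13, and 0.32 after quantile normalization). The RefSeq table names 27 pseudogenes of FTH1 and 20 of FTL, and the authors kept reads with a single position in the genome, so the level of both chains is uncertain. The exons of FTH1 also overlap those of BEST1 on the opposite strand.

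HP, which binds free hemoglobin (chr16:72088404-72094954, plus strand), had no library above 5.63 CPM. It was 1.11 and 2.75 CPM in Huh7 parental, 2.41 and 1.36 CPM in DMSO, 0.0663 and 0.558 CPM in IR and 1.73 and 5.63 CPM in CR cells. The IR libraries lay below the parental ones (log2 difference -1.12, SE 0.38), and CR libraries overlapped with them. In Hep3B it was 0.0942 and 0.520 CPM in parental, 1.37 and 1.25 CPM in DMSO, 0.0134 and 0.114 CPM in IR and 0.0265 and 0 CPM in CR cells. The DMSO libraries lay above the parental ones, and CR libraries below, with 2 reads against 44 (ratio 19.4, 95% counting interval 5.06 to 165). HPR, a near-identical neighbour of HP, did not pass the filter, and reads shared by both genes would not have been counted, so the level of HP is uncertain too.

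HPX, which binds free heme (chr11:6452279-6463847, minus strand), was lower in all 4 resistant groups than in parental cells. It was 26.7 and 41.8 CPM in Huh7 parental, 54.4 and 36.3 CPM in DMSO, 2.14 and 4.40 CPM in IR and 1.16 and 4.03 CPM in CR cells. In Hep3B it was 18.4 and 19.3 CPM in parental, 27.1 and 15.8 CPM in DMSO, 1.14 and 2.62 CPM in IR and 0.622 and 0.457 CPM in CR cells. All 8 resistant libraries lay below the parental and DMSO libraries of their line. The log2 differences were -3.06 and -3.38 in Huh7 and -2.83 and -3.69 in Hep3B (SE 0.43).

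Counted over the 10 genes, 8 lay lower and 0 higher in Huh7-IR than in Huh7 parental cells without overlap of libraries, while 77.1% of all genes tested did not overlap (30.1% lower and 47.0% higher). In Huh7-CR cells 7 lay lower and 0 higher (77.5% of all genes, 33.7% lower and 43.8% higher). In Hep3B-IR cells 6 lay lower and 1, SLC40A1, higher (73.7%, or 31.7% and 42.0%). For Hep3B-CR cells the counts were 7 lower and 1, FTH1, higher (76.6%, or 30.8% and 45.8%). In Huh7 DMSO cells 4 lay higher (HAMP, TF, TFR2 and SLC40A1) and 2 lower (TFRC and FTH1), where 50.4% of all genes did not overlap (28.7% higher and 21.6% lower). In Hep3B DMSO cells 5 lay higher (TF, TFR2, HP, FTL and SLC40A1) and 0 lower (62.0%, or 32.3% and 29.6%). The 3 comparisons within a line share their parental libraries. Since the genes were chosen with these values known, nothing is read from the counts.

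**Figure D3:**
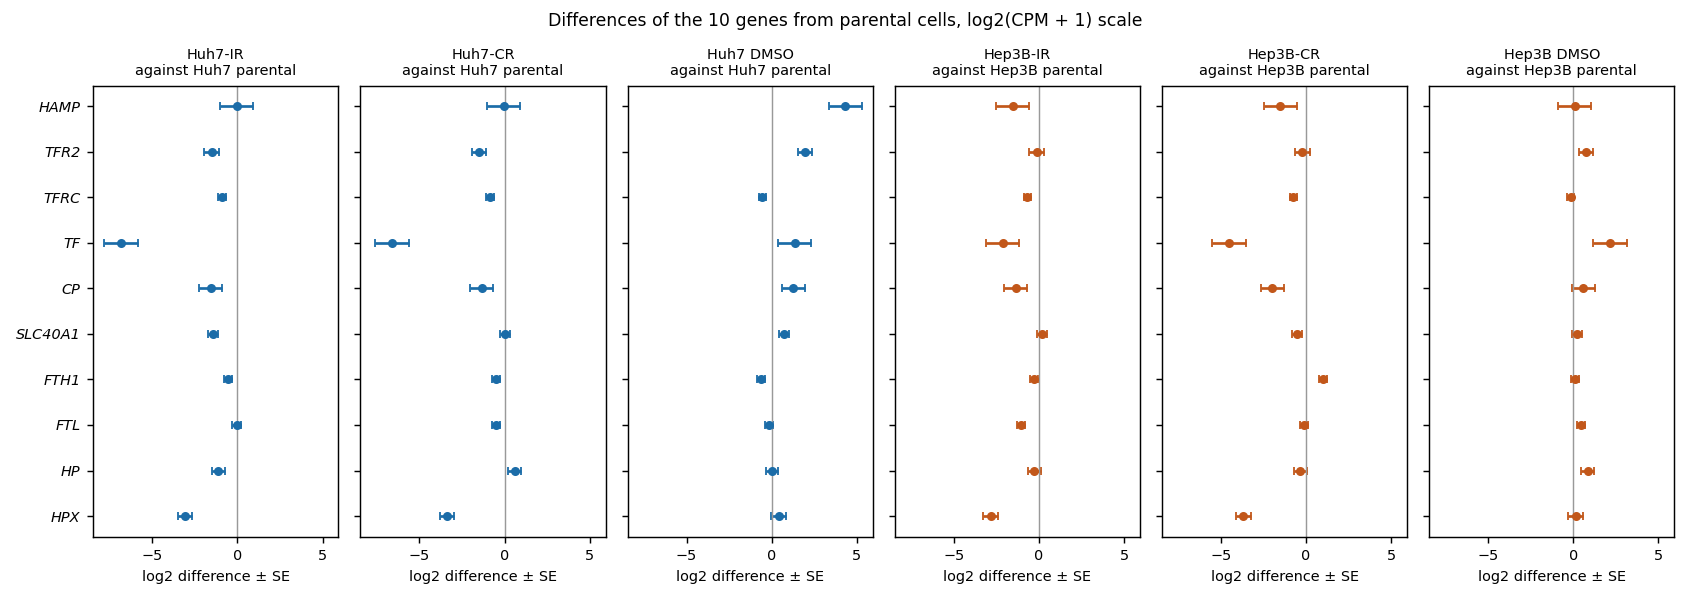
Log2 difference from the parental cells of the same line on the horizontal axis, on the log2(CPM + 1) scale, for the 10 genes on the vertical axis, with bars for ± SE from the fit over 16 libraries. TF reaches -6.82 in Huh7-IR cells, HPX lies between -2.83 and -3.69 in the 4 resistant groups, and HAMP is at 4.32 in Huh7 DMSO cells.

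The parental lines were also compared in the 10 genes, and nothing is read from the number that differed. HAMP and CP lay lower in Huh7 than in Hep3B parental cells, with HAMP at 6 and 2 against 59 and 285 reads. HP, HPX, TFR2, FTH1, FTL and SLC40A1 lay higher in Huh7 without overlap, where 81.1% of all genes did not overlap (37.7% higher and 43.5% lower). The log2 differences ran from 0.29 for FTL to 1.123 for HP among the latter and were -4.16 for CP and -1.505 for HAMP. TF and TFRC overlapped between the lines, TFRC with means of 1057 and 1059 CPM.

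Beyond the 10 genes, a wider list of 99 other iron genes was tested, of which 90 passed the filter. It comprised genes for hepcidin control, iron sensing and ferritin turnover, cellular iron uptake and reduction, mitochondrial iron and iron-sulfur clusters, heme synthesis, and heme breakdown and transport. By limma's test at an adjusted p under 0.05, 25 rose and 27 fell when Huh7-IR was set against Huh7 parental cells. There 57.5% of all genes were called (36.0% higher and 21.5% lower). For Huh7-CR cells the counts were 17 higher and 18 lower (41.3% of all genes called, 24.5% higher and 16.8% lower). Hep3B-IR cells had 21 that rose and 13 that fell (32.0%, or 18.3% and 13.7%), and Hep3B-CR cells had 27 and 14 (38.8%, or 23.6% and 15.2%). In Huh7 DMSO cells 5 rose and 1, the zinc and iron importer SLC39A14, fell (5.18%), and in Hep3B DMSO cells 1, the metalloreductase STEAP2, rose (1.64%). Called shares of the list were 57.8%, 38.9%, 37.8%, 45.6%, 6.67% and 1.11% in this order, close to the shares of all genes. The split depended on the scaling in Huh7-IR cells, where the median of all genes was 0.19 on the CPM scale and 0.04 after TMM scaling. There 18 rose and 33 fell after TMM, 18 and 37 after quantile normalization, 21 and 33 by edgeR and 21 and 36 by DESeq2. In Huh7-CR cells quantile normalization gave 13 higher and 24 lower, in Hep3B-CR cells it gave 19 and 15 and DESeq2 gave 24 and 19, and in Huh7 DMSO cells TMM and edgeR gave 5 and 2, quantile normalization 4 and 2 and DESeq2 13 and 6. The study's methods call the replicates biological, but no source used here says that they were separate cultures. These p-values therefore measure the spread between libraries, which may be technical in part.

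By role, the lists differed in length and in the share called. Of 27 genes of hepcidin control, 11 rose and 6 fell in the IR and 10 and 4 in the CR cells of Huh7, and 10 and 6 in the IR and 8 and 6 in the CR cells of Hep3B, with median log2 fold changes of 0.52, 0.28, 0.16 and 0.23 beside 0.19, 0.07, 0.06 and 0.11 over all genes. The shares called were 63.0%, 51.9%, 59.3% and 51.9%, beside 57.5%, 41.3%, 32.0% and 38.8% of all genes. Of 10 genes of uptake and reduction, 4 rose and 3 fell in the IR and 3 and 1 in the CR cells of Huh7. In Hep3B 3 rose and 0 fell with IR and 7 and 0 with CR cells, where their median was 1.43 and 70.0% were called. Of the 27 mitochondrial and iron-sulfur genes, 6 rose and 10 fell in Huh7-IR and 1 and 5 in Huh7-CR cells. In Hep3B the counts were 4 and 2 for IR and 7 and 3 for CR cells. The shares called were 59.3%, 22.2%, 22.2% and 37% in this order. Of 6 genes of iron sensing and ferritin turnover 0 rose in any of these comparisons, and IREB2, the gene of iron regulatory protein 2, picked after its values were known, fell in 3 of the 4. IREB2 was 197 and 233 CPM in Huh7 parental, 64.8 and 87.9 CPM in Huh7-IR and 80.6 and 93.8 CPM in Huh7-CR cells (log2 fold changes -1.49 and -1.29), and its adjusted p was 0.53 in Hep3B-IR cells at -0.17. Of 8 genes of heme synthesis, 2 rose and 2 fell in Huh7-IR cells, and 0 rose in the other 3 comparisons, where 3, 3 and 1 fell. Of 12 genes of heme breakdown and transport, 2 rose and 3 fell in Huh7-IR and 3 and 3 in Huh7-CR cells. In Hep3B the counts were 4 and 2 for IR and 5 and 3 for CR cells. The shares called were 41.7%, 50%, 50% and 66.7% in this order.

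**Figure D4:**
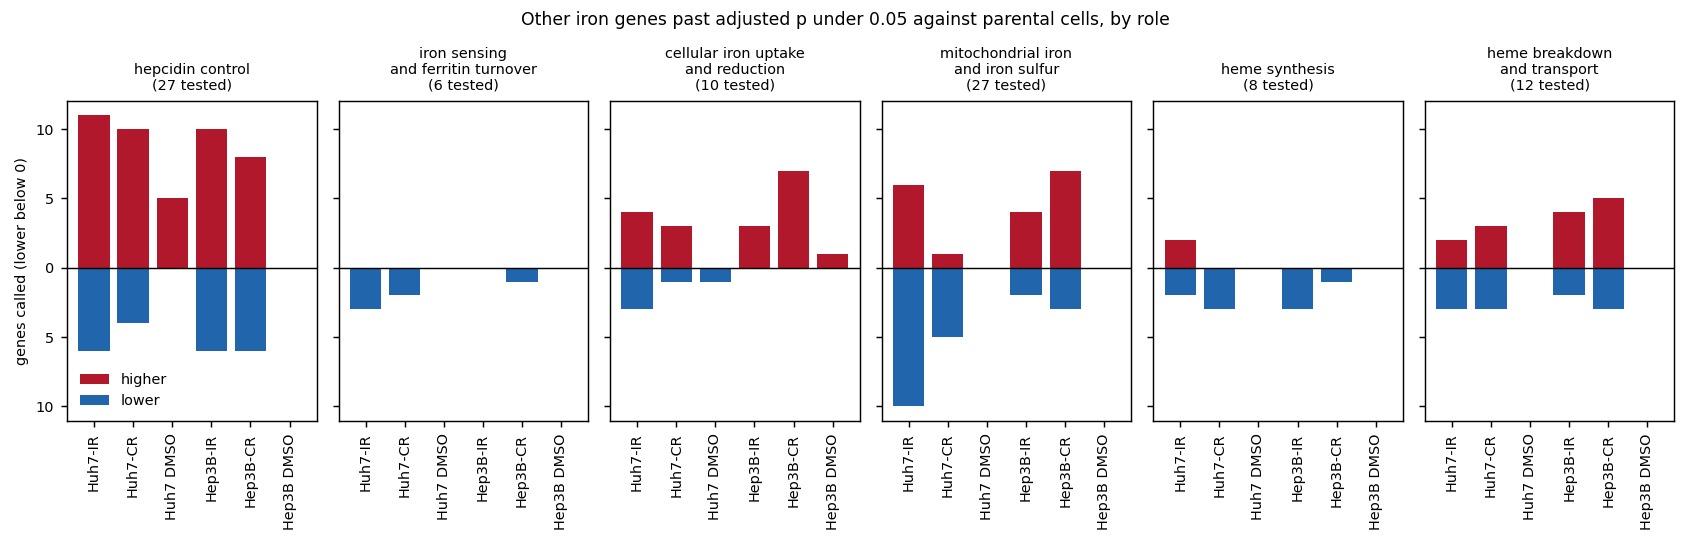
Number of other iron genes past an adjusted p under 0.05 against parental cells on the vertical axis, with genes that rose above 0 in red and genes that fell below 0 in blue, by role and comparison. Hepcidin control, a list of 27 genes, has 11 above and 6 below 0 for Huh7-IR cells (63.0% of the list, 57.5% of all genes), and the DMSO comparisons hold 6 calls in Huh7 and 1 in Hep3B.

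Of the wider list, 6 genes rose and 3 fell in all 4 comparisons of resistant with parental cells, and 8 of these are described here. The share of all genes called in 1 direction in all 4 is not given, so nothing is read from this count. The comparisons of a line also share their parental libraries. BMP6, a ligand that induces hepcidin, rose from 1.57 and 1.29 CPM to 6.15 and 7.21 CPM in Huh7-IR and to 13.6 and 8.74 CPM in Huh7-CR cells, with log2 fold changes of 1.66 and 2.30 (SE 0.28, adjusted p = 0.00033 and 5.3e-05). In Hep3B it rose from 0.296 and 0.338 CPM to 22.2 and 18.7 CPM in IR and to 58.9 and 59.6 CPM in CR cells (4.02 and 5.52, adjusted p = 1.2e-06 and 1.2e-07). The BMP6 libraries of every resistant group lay above all parental ones, in the same libraries in which HAMP was at 5 reads or fewer. HAMP was already at 6 and 2 reads in Huh7 parental cells, so only in Hep3B did it lie below the parental libraries. BMPR2, a BMP receptor, rose by log2 fold changes of 0.93 to 1.30, from 49.1 and 59.8 CPM to 107 to 145 CPM in resistant Huh7 and from 76.0 and 63.7 CPM to 125 to 145 CPM in resistant Hep3B cells. TWSG1, which encodes a BMP-binding protein, rose by 2.31 and 2.69 in the IR and CR cells of Huh7 and by 0.61 and 0.75 in those of Hep3B. The exons of BMP6 overlap those of TXNDC5 on the opposite strand.

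MELTF, the membrane-bound relative of transferrin, rose by 3.69 and 2.25 in the IR and CR cells of Huh7 and by 1.24 and 2.03 in those of Hep3B. MMS19, which passes iron-sulfur clusters to nuclear proteins, rose by 1.26, 1.07, 0.46 and 0.61, and the heme transporter SLC48A1 by 1.54, 0.48, 0.96 and 1.70 in the same order. The Huh7-CR call of SLC48A1 was lost in 7 of 12 other alternatives, edgeR and TMM among them, and its value was 0.03 with DMSO as reference. The heme exporter FLVCR1 fell in the same comparisons with log2 fold changes of -2.07, -0.80, -0.81 and -0.86. AMBP, whose product α1-microglobulin is a plasma scavenger of heme, had the most negative values of the wider list in resistant Huh7 cells. It was 1080 and 1006 CPM in Huh7 parental, 1.24 and 2.21 CPM in Huh7-IR and 10.2 and 13.8 CPM in Huh7-CR cells, with log2 fold changes of -8.60 and -6.34 (SE 0.31), and fell from 549 and 604 CPM to 187 to 358 CPM in Hep3B-IR and 112 to 205 CPM in Hep3B-CR cells (-1.15 and -1.92). The calls of BMP6 and BMPR2 held in all 4 comparisons without any single library, while FLVCR1 lost 6 of 16 such calls, TWSG1 5, MELTF and MMS19 4 each, SLC48A1 3 and AMBP 2. With 12 other alternatives in each of 4 comparisons, 48 calls per gene, SLC48A1 lost 7, all of them in Huh7-CR cells. MELTF lost 3, TWSG1 and MMS19 1 each, and the others 0. The exons of MELTF and SLC48A1 overlap those of genes on the opposite strand, MELTF-AS1 for the former and HDAC7 and RAPGEF3 for the latter.

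Other genes differed in their change between the lines, by the interaction contrast described further on. CYBRD1, a reductase of ferric iron, was at most 0.115 CPM in the parental and DMSO libraries of both lines and reached 165 and 24.03 CPM in Huh7-IR and 13.6 and 18.4 CPM in Huh7-CR cells, with log2 fold changes of 5.92 and 3.98 (SE 0.59). In Hep3B it reached 2.81 and 1.51 CPM in IR cells, which did not pass by limma (adjusted p = 0.064), and 2.85 and 3.67 CPM in CR cells, which did (2.01, adjusted p = 0.018). The Hep3B-IR value passed by edgeR (5.18) and DESeq2 (5.20), the Hep3B-CR call was lost without any 1 library of the groups compared and with a pseudocount of 4 CPM (0.84), and the difference between lines was not called by edgeR (3.48). SMAD1, a mediator of BMP signals, rose from 0.480 and 0.402 CPM to 15.3 to 19.4 CPM in resistant Huh7 cells (3.66 and 3.70, SE 0.22), and was 20.9 and 20.2 CPM in Hep3B parental cells, where neither resistant group passed (0.02 and 0.37). FURIN, the protease that processes prohepcidin, fell in both resistant groups of Huh7 (-1.90 and -1.47) and stood at -0.09 and -0.10 in Hep3B. STEAP1 and STEAP2, of a family of metalloreductases, rose in resistant Hep3B cells, by 2.48 and 2.75 and by 2.60 and 2.90 with IR and CR. Hep3B DMSO cells also lay above parental cells for both genes. STEAP1 was 1.35 and 2.49 CPM in parental and 5.15 and 5.20 CPM in DMSO libraries, against 14.7 to 18.9 CPM in resistant ones. STEAP2 was 0.713 and 0.689 CPM in parental and 3.43 and 3.36 CPM in DMSO libraries, against 8.50 to 14.6 CPM in resistant ones.

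HJV and TMPRSS6, which act on hepcidin in opposite directions, both fell in resistant Hep3B cells. HJV went from 2.29 and 4.54 CPM in Hep3B parental cells to 0.0268 and 0.0284 CPM in IR and 0.0265 and 0.0571 CPM in CR cells, with log2 fold changes of -2.05 and -2.04 (SE 0.35, adjusted p = 0.00088 and 0.00077). TMPRSS6 went from 4.09 and 3.91 CPM to 0.522 and 0.881 CPM in IR and 0.980 and 0.819 CPM in CR cells, with -1.56 and -1.40 (SE 0.47, adjusted p = 0.023 and 0.033). Both TMPRSS6 calls were lost without any 1 library of the groups compared, with a pseudocount of 4 CPM (-0.77 and -0.71) and with no filter. SMAD9 fell alongside, with -1.96 and -2.07, and its IR call was lost without Hep3B parental replicate 2 (-1.87) or IR replicate 1 (-1.54). In resistant Huh7 cells HJV was at 0 to 0.0309 CPM and TMPRSS6 at 0 to 0.0215 CPM, and neither passed from parental levels of 1.00 CPM or less by limma (HJV -0.74 and -0.72, adjusted p = 0.090 and 0.12). Both genes passed as lower in these cells by edgeR and DESeq2 on recovered reads, with a pseudocount of 0.25 CPM, after quantile normalization and without the DMSO libraries. SLC39A14 fell in both resistant groups of Huh7 (-1.072 and -1.02), from 930 and 970 CPM to 408 to 500 CPM, and rose in Hep3B-CR cells (0.66). Against the DMSO libraries, at 545 and 434 CPM, the Huh7 values of SLC39A14 were -0.11 and -0.05 and did not pass, and the Hep3B-CR call was lost without Hep3B parental replicate 1 (0.51). HMOX1, the heme oxygenase gene, picked after its values were known, rose in both resistant groups of Hep3B (0.99 and 0.79, adjusted p = 0.0067 and 0.018), fell in Huh7-CR cells (-1.01, adjusted p = 0.0047) and stood at -0.16 in Huh7-IR cells. The Hep3B calls of HMOX1 were lost with DMSO as reference (0.44 and 0.24) and without Hep3B parental replicate 1 (0.76 and 0.56), and the CR call also without either CR library and after quantile normalization (0.64). BMP2 fell in Huh7-IR, Huh7-CR and Hep3B-CR cells (-1.67, -1.06 and -0.97) and stood at 0.15 in Hep3B-IR cells.

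**Figure D5:**
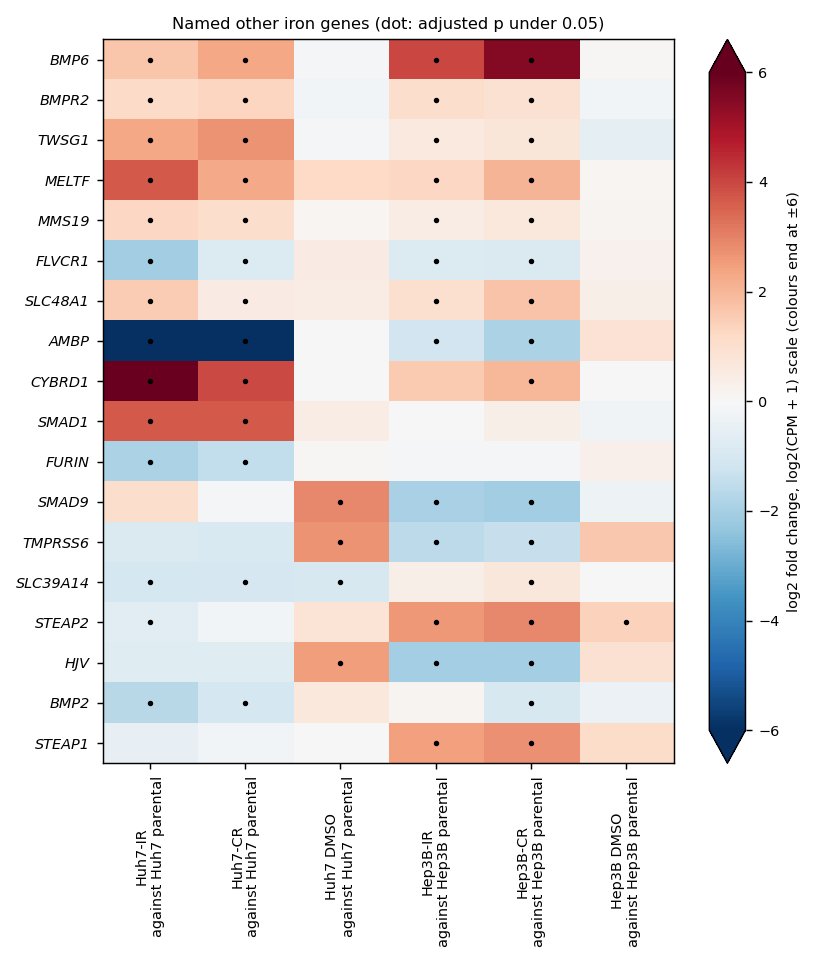
Log2 fold changes of 18 named other iron genes (rows) against the parental cells of the same line in the 6 comparisons (columns), red for higher and blue for lower, with a dot where the adjusted p is under 0.05 and colours ending at ±6. BMP6 is red with a dot in all 4 resistant comparisons, from 1.66 in Huh7-IR to 5.52 in Hep3B-CR cells, and AMBP is blue in all 4.

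An interaction contrast then compared the lines in how far their resistant cells, averaged over IR and CR, differed from parental cells. Of the 90 other iron genes, 12 changed more positively and 24 more negatively in Huh7 than in Hep3B, with 31.6% of all genes called (17.4% and 14.2%). The rise of BMP6 was smaller in Huh7 by 2.79 on the log2 scale (contrast -2.79, SE 0.34, adjusted p = 1.0e-04). SMAD1 (3.48), CYBRD1 (3.17) and TWSG1 (1.82) changed more positively in Huh7, and AMBP (-5.94), STEAP2 (-3.16) and STEAP1 (-2.94) more negatively. Between the parental lines themselves 24 genes were higher and 20 lower in Huh7, with 50.3% of all genes called (22.5% higher and 27.8% lower). BMP2 (log2 fold change 2.58) and STEAP1 (2.55) were highest, and SMAD1 (-3.90) and SMAD9 (-2.85) lowest, of those called.

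The pattern of HAMP over the 16 libraries was most like that of DYDC2, TMEM31, LGALS14, FUT2 and PPFIA4, by Pearson's r of log2(CPM + 1) of 0.94, 0.93, 0.91, 0.90 and 0.89. Without the second DMSO libraries of Huh7 and Hep3B, the 2 farthest from the median, r was 0.76, 0.74, 0.62, 0.58 and 0.12 over 14 libraries, so that the likeness rested in part on these libraries. The pattern of TFRC was most like that of CTCF, HNRNPH1, HNRNPU, GFM1 and DLAT, with r of 0.92, 0.92, 0.92, 0.92 and 0.91, and 0.88 to 0.90 without the second parental libraries of both lines. The libraries of a group share their cells and treatment, so the points are not independent.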

How the data were processed

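RNA of 16 samples of Huh7 and Hep3B cells (8 groups, 2 replicates each) was sequenced with poly(A) selection and a stranded kit per the labels. The study's methods name a total RNA kit and biological triplicates, and 2 libraries per group were analysed here. The authors mapped reads to hg19 with RNA-STAR, kept unique hits, counted them over exons of RefSeq mRNAs with QuasR and deposited CPM values per gene, and whether counting used strand is not stated. All CPM values (100% within 0.05 reads) were whole multiples of 1 read, from which reads and totals of 46613302 to 76860251 were recovered. No column of values was left out. Of 26258 gene IDs, 26111 matched a symbol.

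Members and lists were chosen with earlier results of these data known. log2(CPM + 1) of the 15019 genes that reached 1 CPM in 2 or more libraries was fitted by group in 1 fit over 16 libraries with limma 3.58.1 (mean-variance trend, R 4.3.3), with Benjamini-Hochberg adjustment over all genes and a threshold of 0.05. This scale understates the change of low genes. The scripts were tested on simulated data. The members got no test. Of the other iron genes, those named were called in 1 direction in all 4 comparisons of resistant cells or were among the 2 highest or 2 lowest called in a comparison, and IREB2, HMOX1, SMAD6, ACVR2B and ID1 were picked after their values were seen. One further gene that met the rule is not reported here by name and stays in the counts. Alternatives were the pseudocount, the filter, TMM and quantile normalization, edgeR 4.0.16 and DESeq2 1.42.0 on recovered reads, a replicate block, 1 line alone, DMSO as reference, a fold rule, and each library left out. A group at 0 reads was given a floor of 3 reads over the group, and 95% intervals of read ratios cover counting error only. Promoters were the 250 bases of the GRCh37 genome before starts of main transcripts of GENCODE v44 lifted to GRCh37, which also gave the UTRs.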

Additional observations from a re-analysis of the deposited data

Results flagged for a closer look

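For 16 named other iron genes, the change of resistant against parental cells differed between the lines. The change was averaged over IR and CR and tested by the interaction contrast of limma, adjusted over all genes. Several of these genes were named for their rank in this contrast or after their values were seen, so nothing is read from their number. This contrast called 31.6% of all genes and 40% of the 90 other iron genes tested. The contrast, the change in Huh7 minus that in Hep3B on the log2 scale, was positive for SMAD1 (3.48, adjusted p = 3.4e-06), CYBRD1 (3.17, 0.0059), SMAD9 (2.49, 0.0060), TWSG1 (1.82, 8.7e-05), ACVR2B (1.76, 0.00048), HJV (1.32, 0.034) and MMS19 (0.63, 0.021). It was negative for AMBP (-5.94, adjusted p = 6.2e-07), STEAP2 (-3.16, 9.9e-06), STEAP1 (-2.94, 8.8e-05), BMP6 (-2.79, 1.0e-04), FURIN (-1.59, 0.012), SLC39A14 (-1.55, 7.5e-05), HMOX1 (-1.47, 0.0023), BMP2 (-0.96, 0.015) and IREB2 (-0.89, 0.011). With DMSO in place of parental cells as reference the contrast turned to -0.69 for SMAD9 and -0.26 for HJV. The HJV call was also lost by edgeR (1.10) and DESeq2 (1.01), with a pseudocount of 4 CPM (0.64), with no filter and without any 1 of Huh7 parental replicate 1, Hep3B parental replicate 2 and the Huh7-CR, Hep3B-IR and Hep3B-CR libraries, and that of CYBRD1 by edgeR (3.48). The calls of BMP2, IREB2 and MMS19 were lost without Huh7 parental replicate 2 (-0.96, -0.77 and 0.52), those of BMP2 and MMS19 also without Hep3B parental replicate 1 (-0.87 and 0.67), that of MMS19 without Hep3B parental replicate 2 (0.59) and that of FURIN without Huh7 parental replicate 1 (-1.47). Parental levels of HJV were 0.437 and 0.964 CPM in Huh7 and 2.29 and 4.54 CPM in Hep3B, and log2(CPM + 1) compresses values near 0. Each group held 2 libraries, so a library far from its replicate could not be tested for.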

How the results depend on the processing

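Leaving out 1 library of the groups compared gave 36 to 48 calls for Huh7-IR, 22 to 28 for Huh7-CR (22 without Huh7 parental replicate 2), 14 to 22 for Hep3B-IR (14 without Hep3B-IR replicate 1, 16 and 17 without Hep3B parental replicates 1 and 2, 22 without Hep3B-IR replicate 2), 26 to 31 for Hep3B-CR (26 without Hep3B-CR replicate 1), 23 to 41 for the difference between lines (23 without Hep3B parental replicate 1) and 29 to 33 between parental lines (29 without Hep3B parental replicate 1). For Huh7 DMSO cells it gave 2 to 27, with 3 and 2 without parental replicates 1 and 2, 27 without DMSO replicate 1 and 4 without DMSO replicate 2. For Hep3B DMSO cells it gave 0 by limma in all cases (8 to 17 at an unadjusted p under 0.05, and 1 by edgeR on all libraries). The DMSO counts of Huh7 and Hep3B were 19 and 5 with DESeq2, 17 and 8 by a rule of 0.58 on the log2 scale with p under 0.05 before adjustment, and 0 and 6 with libraries of 1 line alone (17 at an unadjusted p for Huh7, and 7 by edgeR on all libraries). Without the 4 DMSO libraries, chosen after seeing the data, the resistant comparisons gave 56, 37, 34 and 43.

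With DMSO in place of parental cells as reference, values reversed for SMAD9 (-1.82) in Huh7-IR cells, for SMAD6 (-0.48) in Huh7-CR cells, and for the difference between lines in SMAD9 (-0.69), HJV (-0.26) and SMAD6 (-1.45). The difference between lines in TMPRSS6 was 0.58 by limma without the DMSO libraries and had the reverse sign with edgeR (-4.92) and DESeq2 (-4.70). Its mean was 0.890 CPM in Huh7 parental, 0.0190 CPM in Huh7-IR and 0 CPM in Huh7-CR cells, a range that log2(CPM + 1) compresses. The cause was not tested. Among the 10 genes, FTL in Huh7-IR cells was 0.12 and in Hep3B-CR cells 0.32, and in Hep3B DMSO cells 0.08, after quantile normalization.

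The replicate numbers do not show pairing, with 2 pairs per comparison and correlations of deviations from -0.22 to 0.26. With the number as a replicate block the counts were 52, 37, 6, 35, 42 and 2 for the comparisons with parental cells, in the order Huh7-IR, Huh7-CR, Huh7 DMSO and the same groups of Hep3B, 36 for the difference between lines and 43 between parental lines.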
